A study of Mus musculus with 18 samples.

Results

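The lysosomal genes described here are 46 genes chosen by name and function, with earlier results of these data known, from the 23474 gene identifiers of the table. They encode 8 cysteine cathepsins of the papain family, 4 other proteases, 7 lipid hydrolases or lipid-handling proteins, 7 glycosidases, 5 membrane proteins, 12 subunits or accessory proteins of the vacuolar proton pump (6 of its cytosolic V1 sector, 6 of the membrane V0 sector and accessory proteins) and 3 transcription factors of the MiT/TFE family. All 46 were found. RNA was sequenced from epididymal white adipose tissue (eWAT, the fat pad beside the epididymis) and from liver of male mice, named C57BL/6J in the protocol and C56BL/6J in the strain field. At 17 weeks of age, after 12 weeks of diet begun at 5 weeks, there were 3 groups of 10 mice, housed singly: a normal diet (ND), or a high-fat diet in mice named prone (HP) or resistant (HR). Each tissue has 3 libraries per group, 18 in all, and the labels carry no genotype or drug. Mice were divided at random, per the protocol, which leaves unstated how the prone were distinguished from the resistant. It is also unstated whether every library is its own mouse, and p-values here reflect only how far these samples spread, possibly for technical reasons.

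Lysosomes are acidic compartments in which proteins, lipids and sugar chains brought in by endocytosis, phagocytosis or autophagy are broken down. The vacuolar ATPase uses the energy of ATP to pump protons inward, and the acid this makes activates the hydrolases. TFEB, TFE3 and MITF are related transcription factors that bind an E-box with the core letters CACGTG in the promoters of many lysosomal genes. In fat, both adipocytes and the macrophages that take up lipid from them carry lysosomes, and in liver hepatocytes and resident macrophages do.

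Because these factors read the DNA next to the start site, the upstream sequences of 5 genes with the E-box core are shown: a glycosidase (Gla), a protease (Ctsd), a pump subunit (Atp6v1a), a calcium channel (Mcoln1) and an abundant membrane protein (Lamp1). Each is the 250 bases before the start site from RefSeq on GRCm38.p6, written 5′ to 3′ on the strand of the gene, with the core in capitals.
Gla (chrX:134601006-134601255, minus strand): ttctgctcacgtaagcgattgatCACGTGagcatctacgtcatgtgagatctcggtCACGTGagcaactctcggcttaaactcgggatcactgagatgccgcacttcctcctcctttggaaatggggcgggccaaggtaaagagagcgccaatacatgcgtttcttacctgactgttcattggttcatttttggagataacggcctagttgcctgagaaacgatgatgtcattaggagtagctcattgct
Ctsd (chr7:142387828-142388077, minus strand): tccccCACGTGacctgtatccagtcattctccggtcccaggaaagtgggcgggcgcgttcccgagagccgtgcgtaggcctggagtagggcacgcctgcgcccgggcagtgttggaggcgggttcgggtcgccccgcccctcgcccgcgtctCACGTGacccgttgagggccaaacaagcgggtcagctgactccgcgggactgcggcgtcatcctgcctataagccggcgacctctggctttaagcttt
Atp6v1a (chr16:44139260-44139509, minus strand): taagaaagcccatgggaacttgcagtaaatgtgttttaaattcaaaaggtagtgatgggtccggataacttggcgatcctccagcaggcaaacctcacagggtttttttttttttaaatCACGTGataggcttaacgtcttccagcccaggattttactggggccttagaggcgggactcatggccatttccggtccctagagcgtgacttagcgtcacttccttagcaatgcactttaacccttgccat
Mcoln1 (chr8:3500269-3500518, plus strand): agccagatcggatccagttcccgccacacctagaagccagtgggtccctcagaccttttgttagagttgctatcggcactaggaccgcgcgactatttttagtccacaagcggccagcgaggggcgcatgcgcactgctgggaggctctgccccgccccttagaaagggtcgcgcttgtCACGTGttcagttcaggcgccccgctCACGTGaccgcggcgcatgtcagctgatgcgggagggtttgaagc
Lamp1 (chr8:13158911-13159160, plus strand): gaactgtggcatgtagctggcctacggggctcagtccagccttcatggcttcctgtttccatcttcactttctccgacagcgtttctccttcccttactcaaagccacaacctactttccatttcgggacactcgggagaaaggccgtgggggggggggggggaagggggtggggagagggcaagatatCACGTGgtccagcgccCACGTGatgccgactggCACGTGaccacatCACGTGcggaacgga
Promoter windows of 300 bases (250 before to 50 after the start) were found for 39 of the 46 genes. Windows for Ctsb, Ctsh, Npc1, Asah1, Atp6v1b2, Atp6v1c1 and Atp6v1h were not found. The core CACGTG, which is its own reverse complement, occurred in 13 of the 39 genes (33.3%), against 8.09% of the 27025 genes of the RefSeq table. The longer TCACGTG, searched on both strands and including the core, was in 11 of 39 (28.2%) and in 4.29% of all genes, and the palindrome TCACGTGA, which includes both, was in 6 of 39 (15.4%) and in 1.12% of all. The CLEAR consensus, which extends the palindrome by a G in front and a C behind, was in 0 of the 39 and in 0.370% of all. The 6 genes with the palindrome were Ctsa, Ctsd, Gla, Mcoln1, Atp6v1a and Atp6v0d1. None of the 5 lipid-class genes with a window and none of the 3 factor genes had the core. These matches describe letters in a window and are not measured binding sites.

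**Figure D1:**
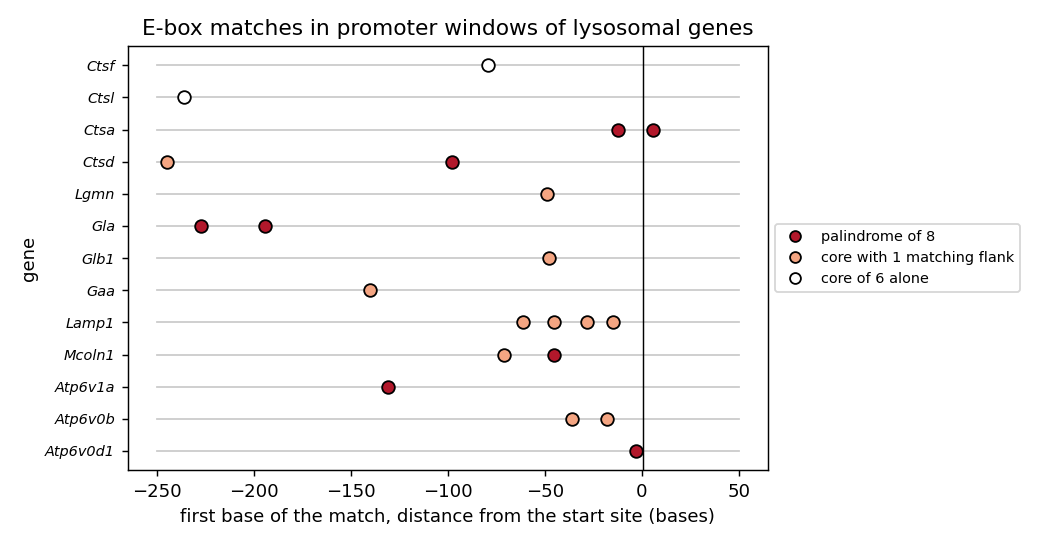
Position of each CACGTG match within the promoter windows of the 13 lysosomal genes that have one. The x axis is the distance in bases of the first base of the match from the start site, grey lines span the window, and fill marks the longest form found. Lamp1 has 4 matches within its last 61 bases before the start, and the Gla matches lie farther upstream.

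The values are FPKM, fragment counts scaled by transcript length and by the mapped fragments of the library, so levels of different genes can be compared per length. The absolute depth is unknown. From the steps of low values, relative depth was 0.877 to 1.10 for the other 8 liver libraries against liver ND 2, and 0.946 to 1.09 for eWAT ND 3, HP 3 and HR 1 against HR 3. All 4 adipocyte markers were present in the 9 eWAT libraries and the hepatocyte markers in the 9 liver libraries, except that albumin (Alb) is listed at 0 in liver HP 3. Libraries eWAT ND 1 and HR 2 stood apart. Spermatid markers (Prm1, Prm2, Tnp1 and Tnp2) reached a sum of 92413 FPKM in ND 1 and of 11231 in HR 2, while the remaining 7 libraries had 7.47 to 2282, and 7 epididymal markers summed to 19734 FPKM in ND 1. An FPKM value is relative to everything else in its library. In ND 1 the lysosomal genes stood at a median of 35.6% of the mean of ND 2 and ND 3, with 38 of 46 below both, and in HR 2 at 28.2% of the mean of HR 1 and HR 3, with 44 below both. The fall was uneven. Lipa was at 5.40% in ND 1 (1.82 FPKM), whereas Tfeb was at 149% (8.93 FPKM), and Npc2, Cd63 and Hexa were also higher in ND 1 than in ND 2 and ND 3 (216, 366 and 103 FPKM). Ppt1 (84.8 FPKM) and Atp6v1d (54.9 FPKM) were the genes above both other HR libraries in HR 2. Results for eWAT are therefore given over all 9 libraries and over the 7 without ND 1 and HR 2. The remaining 7 include ND 3 and HP 1, where the spermatid markers summed to 2282 and 1738 FPKM, and HP 2, where the epididymal markers summed to 1275 FPKM against 0.686 to 13.6 in the other 6.

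**Figure D2:**
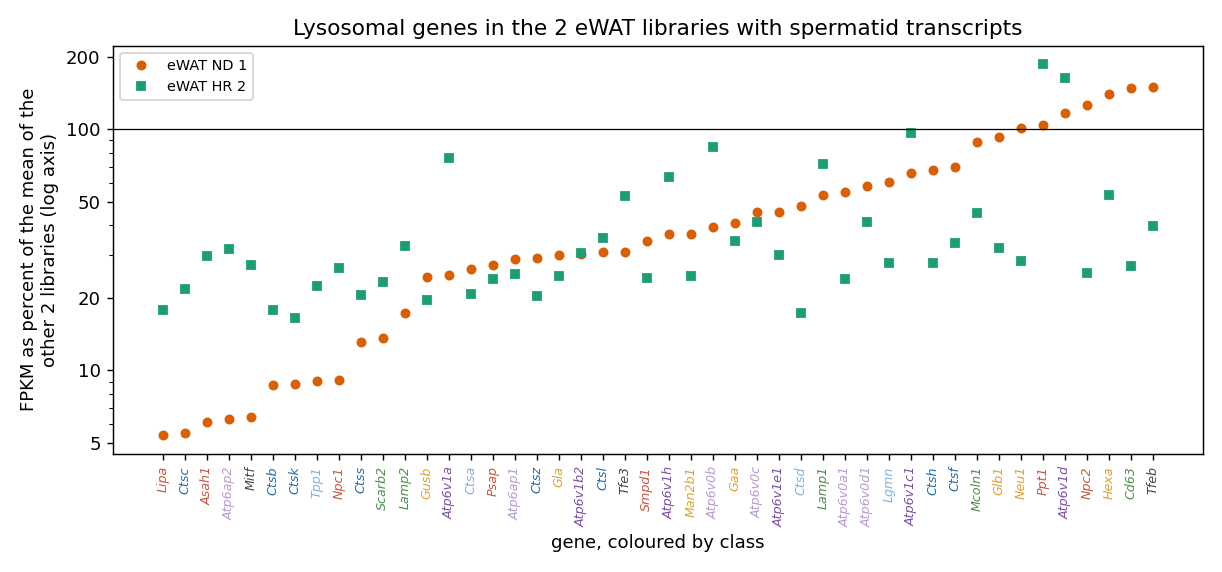
FPKM of each of the 46 lysosomal genes in eWAT ND 1 (circles, percent of the mean of ND 2 and ND 3) and HR 2 (squares, percent of the mean of HR 1 and HR 3), on a log axis, with gene names coloured by class. Most points lie below 100, and 6 genes in ND 1 and 2 in HR 2 lie above both other libraries of their group.

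In eWAT of prone mice most lysosomal genes were more abundant than on normal diet. As a group the 46 genes took 0.855% and 0.884% of summed FPKM in ND 2 and ND 3 and 3.18%, 2.77% and 3.58% in the HP libraries, with 1.77% and 2.101% in HR 1 and HR 3. Tests used limma on log2(FPKM + 1), at an adjusted p of 0.05 over all genes tested, a scale that understates the change of low genes. Over the 7 libraries 37 of 46 were higher in HP than in ND and 1 was lower, where 15.7% of all 13054 genes tested were higher and 7.4% lower. Their median log2 difference was 1.21, against 0.01 for all genes. Over all 9 libraries 4 of 46 passed, all higher: Ctss (5.27), Ctsk (5.05), Gla (3.32) and Lgmn (3.05), where 2.07% of 14430 genes tested were higher and 0.0416% lower. None of the 46 passed without ND 2, ND 3, any 1 HP library or HR 1, while 7 passed without ND 1 and 15 without HR 2. Of the 38 calls over 7 libraries 30 held under every alternative and with each library left out in turn. Without HP 2 there were 32 calls, all higher. The 8 that did not hold throughout were Ctsf, Neu1, Lamp2, Scarb2, Mcoln1, Atp6v1d, Atp6v0d1 and Atp6ap2. In bulk tissue fewer cells of a type and less RNA per cell cannot be told apart. The summed FPKM of 13 macrophage markers, none of them a lysosomal gene described here, was 590.5 to 728 in ND 2 and ND 3, 4186 to 5944 in HP and 1987 to 2328 in HR 1 and HR 3. All 13 macrophage markers were detected in each eWAT library, and 13 of 13 were higher in HP than in ND over the 7 libraries. Adipocyte markers were lower for 3 of 4 in that comparison, at 18688 to 29573 FPKM summed in ND 2 and ND 3 and 14984 to 17558 in HP. Neutrophil markers summed to 7.95 and 9.81 FPKM in ND 2 and ND 3, 53.2 to 61.7 in HP and 29.0 and 47.8 in HR 1 and HR 3, with 1 of 2 tested higher in HP than in ND. Nearly all of each sum was S100a8, at 7.12 and 9.56 FPKM in ND 2 and ND 3 and 51.2 to 60.7 in HP. S100a9 had 0.825 and 0.204 FPKM in ND 2 and ND 3 and 0.856 to 1.25 in HP, and Ly6g and Cxcr2 stayed at or below 0.626. The part of these cells in the lysosomal results was not tested.

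**Figure D3:**
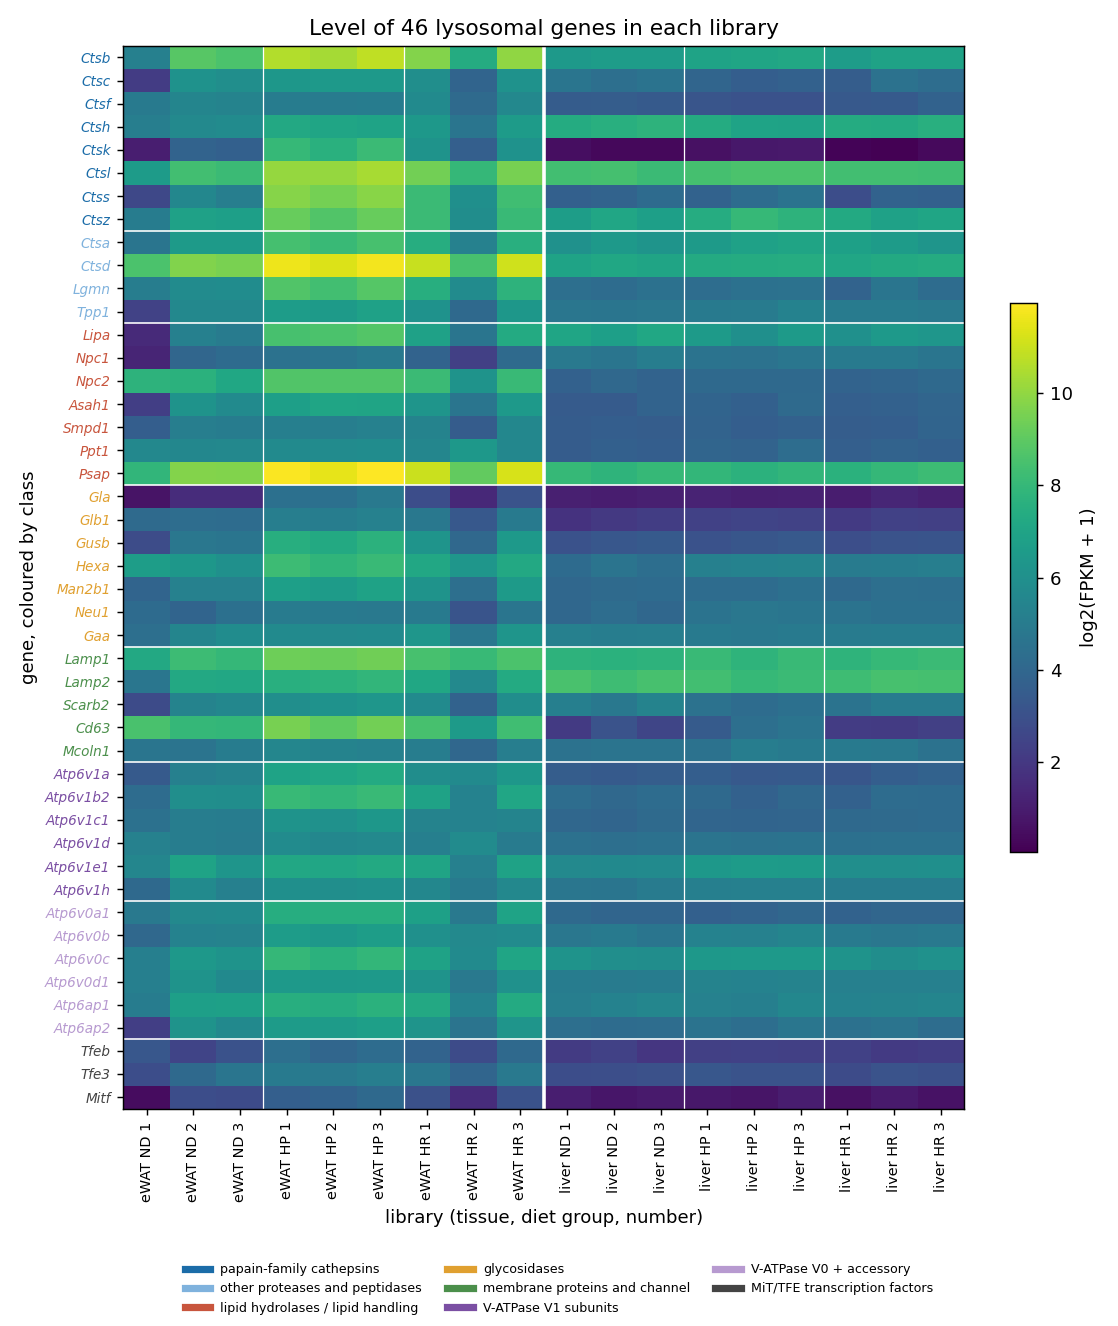
Level of each of the 46 lysosomal genes, as log2(FPKM + 1), in all 18 libraries, eWAT on the left and liver on the right of the thick line, with genes grouped and coloured by class. The eWAT HP columns are the brightest for most genes, eWAT ND 1 and HR 2 are darker than their groups, and the 9 liver columns resemble each other.

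Cysteine cathepsins, the lysosome's papain-like proteases, held the largest differences. Ctss, cathepsin S, an endopeptidase of antigen-presenting cells, had 45.9 and 34.3 FPKM in ND 2 and ND 3, 902, 719 and 913 in the HP libraries, and 290 and 312 in HR 1 and HR 3. Ctsk, cathepsin K, a collagen-degrading protease best known from osteoclasts, had 13.6 and 11.9 FPKM in ND, 257, 193 and 291 in HP, and 72.2 and 68.6 in HR. For both genes the 3 groups were apart among the 7 libraries, with HR between ND and HP. In HR 2, however, Ctsk had 11.66 FPKM, below ND 2 and ND 3. The log2 difference of HP from ND was 4.37 for Ctss (SE 0.17, adjusted p = 6.85e-05) and 4.15 for Ctsk (SE 0.18, adjusted p = 7.52e-05). Ctsz, cathepsin Z, a carboxypeptidase, rose by 2.22 on the log2 scale, from 115 and 108 FPKM to 581, 424 and 578. Ctsl (1.93), Ctsb (1.86) and Ctsh (1.37) rose as well, the abundant Ctsb from 471 and 379.7 FPKM to 1549, 1288 and 1816. Ctsc, cathepsin C, which activates serine proteases of granulocytes, did not pass (0.38, adjusted p = 0.0725). Ctsf, cathepsin F, went the other way, with 43.8 and 40.8 FPKM in ND, 32.5, 30.8 and 31.9 in HP, and 52.3 and 48.5 in HR. Its difference of -0.40 passed narrowly (adjusted p = 0.0349) and no longer passed without any single library other than ND 3, nor over 5 libraries (also without ND 3 and HP 1).

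All 4 other proteases rose in HP. Lgmn, legumain, which cuts after asparagine and processes cathepsins, had 54.3 and 57.5 FPKM in ND, 427, 328 and 449.8 in HP, and 181 and 217 in HR (log2 difference of HP from ND 2.81, SE 0.17, adjusted p = 0.000143). Ctsd, the aspartic protease cathepsin D, was the second most abundant of the 46 in ND, HP and HR eWAT over the 7 libraries. It rose from 826 and 753 FPKM to 3201, 2561 and 3453, a difference of 1.95 (SE 0.18, adjusted p = 0.000658). Ctsa, a carboxypeptidase that also shields the sialidase and β-galactosidase, had 93.6 and 93.4 FPKM in ND, 352, 274 and 362 in HP, and 176 and 187 in HR. It rose by 1.79 in HP, and Tpp1, a tripeptidyl peptidase, by 1.06.

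Among the lipid-handling genes 4 of 7 rose and 3 did not pass. Lipa, lysosomal acid lipase, which frees fatty acids and cholesterol from endocytosed esters, had 36.4 and 31.2 FPKM in ND, 365, 379 and 439 in HP, and 115 and 162 in HR. Among these 7 libraries HP was above HR and HR above ND with no overlap, whereas HR 2 had 24.7 FPKM. Its difference of HP from ND was 3.51 (SE 0.18, adjusted p = 0.000101). Over all 9 libraries it was 4.71 (adjusted p = 0.0697), with 1.82 FPKM in ND 1. Psap, prosaposin, the precursor of the saposins that help sphingolipid hydrolases, was the most abundant gene in each eWAT group and rose from 872 and 846 FPKM to 3789.8, 2930.4 and 3969.6 (difference 2.04). Npc2, which carries cholesterol within the lysosome, had 202 and 141 FPKM in ND, 419, 418 and 419 in HP, and 289 and 278 in HR. It rose by 1.31 in HP, while its membrane partner Npc1 did not pass (0.57, adjusted p = 0.0541). Acid ceramidase Asah1 rose by 0.98. Acid sphingomyelinase Smpd1 (0.14, 95% interval -0.13 to 0.42) and the palmitoyl thioesterase Ppt1 (0.23, interval -0.01 to 0.46) did not pass.

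Of the 7 glycosidases, which trim sugar chains, 6 rose. Gla, α-galactosidase A, whose upstream sequence with its pair of palindromes is shown above, was the lowest of the 46 in ND eWAT. It had 1.97 FPKM in both ND 2 and ND 3, 20.7, 21.2 and 27.9 in HP, and 6.40 and 7.74 in HR. Its difference was 3.02 (SE 0.18, adjusted p = 0.00014). Gusb, β-glucuronidase, rose from 26.3 and 24.4 FPKM to 185, 154 and 208 (2.79), and Hexa, the α subunit of β-hexosaminidase, from 81.6 and 65.4 to 295, 231 and 281 (1.86). Man2b1 (1.47), Glb1 (0.92) and Neu1 (0.78) also rose. Gaa, acid α-glucosidase, which degrades glycogen, had 43.3 and 56.7 FPKM in ND and 53.7, 49.2 and 52.8 in HP, so that the groups overlapped (0.06, adjusted p = 0.774). Its levels of 79.05 and 74.9 FPKM in HR were above every HP library (HP minus HR -0.56, adjusted p = 0.0652).

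The 5 membrane proteins rose by less than the leading hydrolases. Cd63, a tetraspanin of late endosomes, had 251 and 243 FPKM in ND, 721, 516 and 696 in HP, and 359 and 311 in HR (difference of HP from ND 1.36, SE 0.17, adjusted p = 0.00247). Lamp1, a major glycoprotein of the lysosomal membrane, had 298 and 254 FPKM in ND, 647, 606 and 666 in HP, and 361 and 381 in HR (1.21, SE 0.12, adjusted p = 0.000991). Scarb2, which delivers glucocerebrosidase to lysosomes, had 40.7 and 46.3 FPKM in ND, 59.4, 68.7 and 78.6 in HP, and 53.1 and 58.8 in HR. The groups were apart among the 7 libraries, whereas Scarb2 had 13.0 FPKM in HR 2. It rose by 0.65 in HP, Mcoln1, a calcium channel, by 0.56 and Lamp2 by 0.50. The last 3 were near the threshold. None of these 3 passed without ND 2, without HP 2 or without HP 3. Lamp2 and Mcoln1 each kept their call in only 1 of 7 fits with a library left out. Cd63 was higher in ND 1 (366 FPKM) than in either other ND library, and over all 9 libraries its difference was 1.18 (adjusted p = 0.487). An annotated Cd63 pseudogene could share its reads in both tissues, so its level is uncertain.

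The proton pump rose in both sectors, 4 of 6 V1 genes and all 6 V0 and accessory genes. In the V1 sector, which hydrolyses ATP, Atp6v1b2 had 61.2 and 58.7 FPKM in ND, 266, 236 and 276 in HP, and 119.6 and 134 in HR (2.09, SE 0.12, adjusted p = 0.000132). Atp6v1a, the catalytic subunit, had 37.2 and 40.6 FPKM in ND, 123, 135 and 160.4 in HP, and 58.5 and 79.9 in HR (1.81, SE 0.18, adjusted p = 0.000794). The stalk subunit Atp6v1c1 rose from 33.8 and 31.8 FPKM to 71.6, 66.8 and 81.4 (1.13) and Atp6v1d by 0.62. Atp6v1e1 (0.60, adjusted p = 0.0821) and Atp6v1h (0.50, adjusted p = 0.0687) did not pass, and their ND libraries were uneven, at 123 and 74.9 FPKM for Atp6v1e1. In the V0 sector, which conducts the protons, Atp6v0a1 rose from 49.4 and 53.3 FPKM to 176, 182 and 185 (1.797, SE 0.10, adjusted p = 0.000136). Of the proteolipid ring genes, Atp6v0c rose from 84.1 and 71.7 FPKM to 248, 199 and 241 (1.55). Atp6v0b rose from 39.4 and 40.6 FPKM to 99.0, 83.3 and 101 (1.21). Atp6ap1, Atp6ap2 and Atp6v0d1 rose by 0.75, 0.73 and 0.51. The calls of Atp6v1d, Atp6ap2 and Atp6v0d1 did not hold throughout, and that of Atp6v0d1 was lost under most alternatives. Atp6v0c has 2 annotated pseudogenes that could share its reads, so its level is uncertain.

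Tfeb, the best known regulator of lysosomal genes, had 4.63 and 7.34 FPKM in ND, 19.99, 14.9 and 18.01 in HP, and 13.3 and 16.3 in HR. Among these 7 libraries ND was lowest with no overlap, whereas ND 1 had 8.93 FPKM and HR 2 had 5.88. Its difference of HP from ND was 1.43 (SE 0.22, adjusted p = 0.00498). Mitf, with 6.24 and 5.93 FPKM in ND and 11.8, 12.8 and 16.4 in HP, rose by 1.04 (SE 0.17, adjusted p = 0.00631). Tfe3 had 16.4 and 25.0 FPKM in ND and 29.99, 28.0 and 34.8 in HP (0.58, adjusted p = 0.0752). These factors are regulated mainly by their entry into the nucleus, which RNA levels do not show.

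Resistant mice were compared with mice on normal diet next, over 2 libraries each. In eWAT 18 of 46 genes were higher in HR and 0 lower over the 7 libraries, where 3.85% of all genes were higher and 0.291% lower. The median log2 difference was 0.62, against 0.02 for all genes. The genes that rose were 6 of 8 cysteine cathepsins, led by Ctss (2.89, SE 0.19, adjusted p = 0.00178) and Ctsk (2.38, adjusted p = 0.00283). With them rose Lgmn (1.81), Ctsd (1.38) and Ctsa (0.95), the lipid genes Lipa (1.99) and Psap (1.39), and 4 glycosidases, Gusb (1.64), Gla (1.44), Man2b1 (1.07) and Hexa (1.00). Atp6v1b2 (1.07) and Atp6v0a1 (1.20) rose in the proton pump, and Tfeb rose by 1.20 (adjusted p = 0.0459). No membrane protein passed (limma, 0 of 5, with 1 at an unadjusted p under 0.05). The count was 4 without HR 3 and 8 without HR 1, each of which leaves 1 HR library whose spread is taken from the other groups, 3 with these groups fitted alone and 10 with no filter on low values. Ctss kept its call under every alternative and every library left out. Over all 9 libraries 0 of 46 passed with limma, where 0% of all genes did, and 6 had an unadjusted p under 0.05. Macrophage markers were higher in HR for 10 of 13 over the 7 libraries, and their part was not tested.

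**Figure D4:**
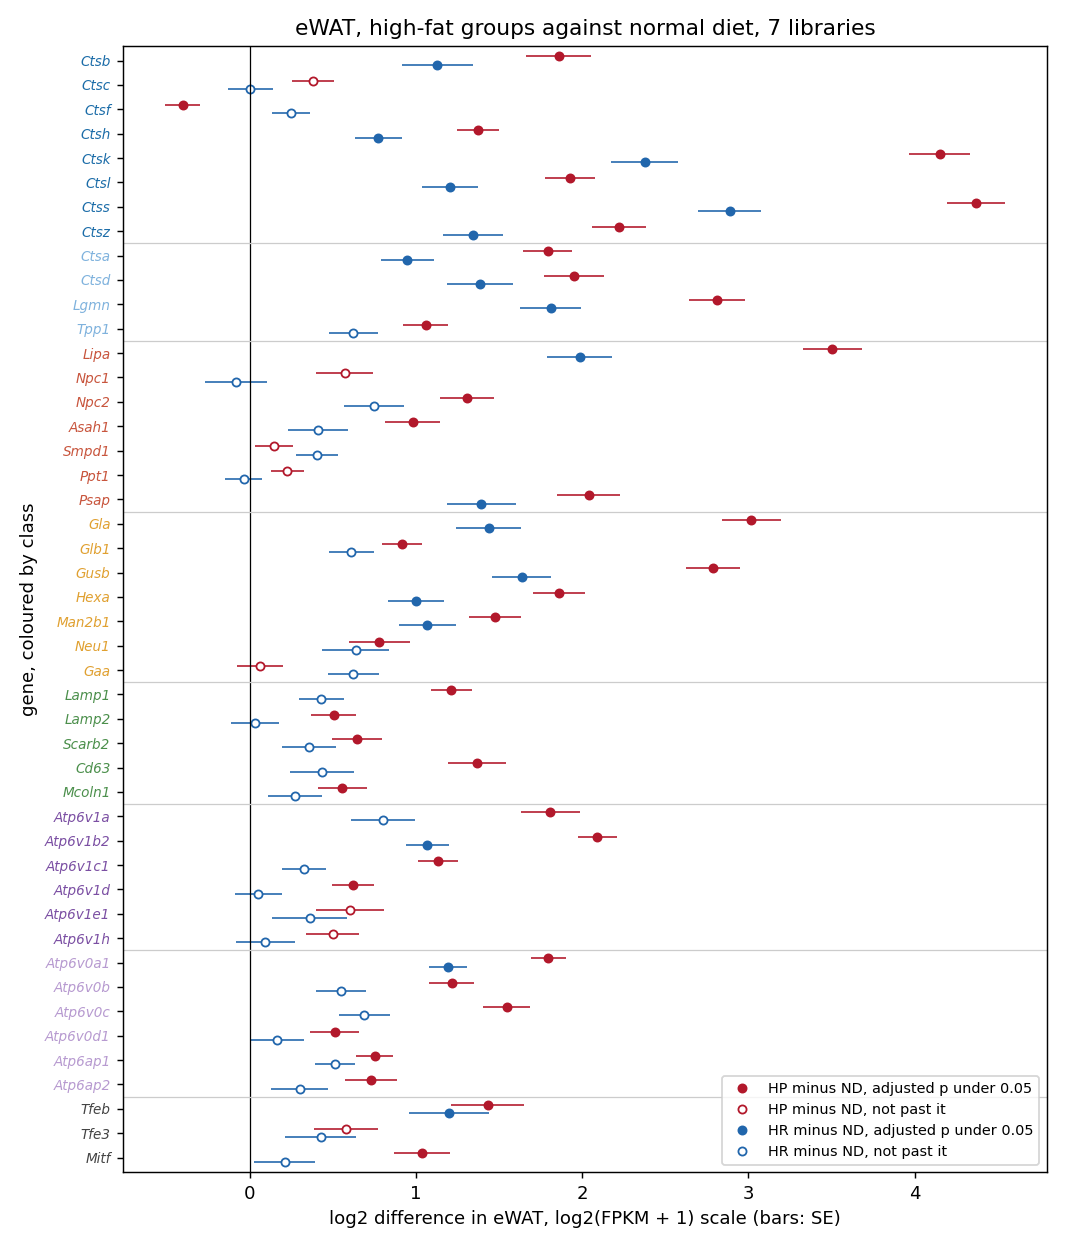
Log2 difference in eWAT of HP (red) and HR (blue) from normal diet for each lysosomal gene over 7 libraries, on the log2(FPKM + 1) scale, with bars for the standard error and filled points for an adjusted p under 0.05. Both comparisons use the same 2 ND libraries. The largest red values are those of Ctss (4.37), Ctsk (4.15) and Lipa (3.51), and Ctsf is the filled point below 0.

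Prone and resistant mice, both on high-fat diet, were then set against each other. Over the 7 libraries 21 of 46 genes were higher in HP and 1 was lower, where 4.21% of all genes were higher and 2.25% lower. Higher in HP were Ctsk (1.78, SE 0.18, adjusted p = 0.0177), Gla (1.58, SE 0.18, adjusted p = 0.0177), Lipa (1.52) and Ctss (1.48). Gusb (1.15), Atp6v1b2 (1.02) and Atp6v1a (1.01) followed, and in all 5 cysteine cathepsins, 7 pump genes and 3 glycosidases were higher. Ctsf was lower in HP (-0.65, adjusted p = 0.0256). The 7 pump genes were 4 of 6 in V1 and 3 of 6 in V0. Of the factor genes Mitf was higher (0.83, adjusted p = 0.0403), and Tfeb was not (0.23, 95% interval -0.29 to 0.75), with HP and HR libraries that overlapped. These calls rested on few libraries. None was left without HP 1, HP 3, HR 1 or HR 3 (limma), 11 were left without HP 2, 13 with median-ratio rescaling and 10 with no filter on low values. Over all 9 libraries 0 of 46 passed (limma, 0% of all genes called, 12 members at an unadjusted p under 0.05). Macrophage markers were higher in HP than HR for 13 of 13 and adipocyte markers lower for 2 of 4. Endothelial markers summed to 204 to 232 FPKM in HP and 314 to 339 in HR 1 and HR 3, and 0 of 5 passed with limma, with 5 lower at an unadjusted p under 0.05. The part of these cells was not tested. By the order of group means, 41 of 46 genes ran ND, HR, HP from low to high in the 7 libraries. That order was not counted over all genes. Some of its steps were small, as for Ctsc at 64.55 FPKM in ND and 64.78 in HR. Smpd1 and Gaa were highest in HR, Npc1 and Ppt1 lowest in HR, and Ctsf lowest in HP.

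Other genes of the lysosomal pathway, from lists of genes beyond the 46, were counted in HP against ND over the 7 eWAT libraries, where 15.7% of all genes were higher and 7.4% lower. Of 25 further hydrolases and activators 15 rose and 0 fell. Dnase2a, an acid nuclease, had 10.7 and 8.74 FPKM in ND and 65.3, 44.3 and 63.1 in HP (2.43), and Galc, galactosylceramidase, rose by 1.49. Of 10 other pump subunits 5 rose and 1 fell. Atp6v0d2, the d subunit isoform known from osteoclasts and macrophages, had 1.42 and 1.16 FPKM in ND, 165, 164 and 196 in HP, and 46.4 and 59.9 in HR. Its difference of HP from ND was 6.26 (SE 0.16, adjusted p = 3.65e-05), beside 0.51 for Atp6v0d1, the common isoform. Tcirg1, the a3 isoform, rose by 2.82, and Atp6v0e2 fell by 1.06. Membrane proteins rose for 6 of 16 and fell for 1, with Cd68, a macrophage marker as well, at 4.32, Laptm5 at 3.02 and Laptm4b at -0.69. Mannose 6-phosphate tagging and sorting, the route by which hydrolases reach lysosomes, had 4 genes that rose and 1 that fell of 6. Nagpa (1.505) and the receptor Igf2r (1.20) were among those that rose, and the sorting receptor Sort1 fell by 0.68. Both cystatins tested rose, Cstb by 2.71 and Cst3 by 0.66; they inhibit cysteine cathepsins. Of genes for mTORC1 anchoring at the lysosome 4 of 13 (30.8%) rose, with Fnip2 at 2.69 and Lamtor1 at 1.03. Of core autophagy genes 2 of 17 (11.8%) rose, a share below that of all genes, Uvrag by 0.69 and Atg12 by 0.55.

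In liver the median change of the same genes was smaller, and changes went in both directions. Some genes, among them Cd63, Atp6v1e1, Ctsc and Scarb2, had a larger estimate in HP liver than in HP eWAT, whatever the sign. These sizes were not tested against each other. The lysosomal genes together took 0.294% to 0.374% of summed FPKM in all 9 liver libraries. Ctsk (0.0464 to 0.842 FPKM) and Mitf (0.522 to 1.11 FPKM) were below the filter on low values, which left 44 genes tested. In HP against ND 14 of 44 were higher and 6 lower, where 17.6% of all 10633 genes tested were higher and 14.1% lower. The shares of 31.8% and 13.6% among the members were near the background for the lower side and above it for the higher. Their median log2 difference was 0.22, against -0.02 for all genes. With libraries rescaled to the same sum of FPKM, which moved the median of all genes to -0.20, 5 were higher and 7 lower, and 10.4% of all genes were higher and 23% lower. The 9 that then no longer passed as higher were Ctsb, Ctsa, Ctsd, Tpp1, Ppt1, Atp6v1h, Atp6v0b, Atp6v0c and Atp6v0d1. With quantile normalization 8 were higher and 7 lower, where 16.2% of all genes were higher and 17% lower, so the higher side was then near the background. Leaving out ND 1 or HP 2 left 9 calls each, ND 3 left 10 and HP 3 left 12.

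The gene with the largest rise in liver was Cd63. It had 3.27, 7.61 and 4.82 FPKM in ND, 10.1, 19.97 and 24.1 in HP, and 3.50, 3.42 and 4.05 in HR. Every HP library was above every ND and HR library, and the difference of HP from ND was 1.59 (SE 0.30, adjusted p = 0.00374). Hexa had 17.5, 23.7 and 19.8 FPKM in ND, 36.7, 39.4 and 40.3 in HP, and 30.7, 32.3 and 34.5 in HR, a rise of 0.91 in HP (SE 0.12, adjusted p = 0.000812). Neu1, the sialidase, rose by 0.54, from 15.6, 19.1 and 15.4 FPKM to 23.1, 26.1 and 24.5. Gaa fell by 0.29, from 37.5, 33.6 and 34.97 FPKM to 28.8, 27.6 and 29.5, and no longer passed with any 1 library left out other than ND 2.

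Among liver proteases, Ctsz rose from 103, 137 and 107 FPKM to 173, 261 and 213 (0.88, SE 0.18, adjusted p = 0.00501). Ctsa rose from 66.5, 85.4 and 73.0 FPKM to 91.7, 116 and 128 (0.57), and Tpp1 from 25.2, 24.9 and 26.3 to 29.9, 31.7 and 39.1 (0.38). Ctsb (0.50) and Ctsd (0.35) also rose. Ctsc fell, from 24.5, 19.9 and 23.5 FPKM to 14.2, 11.5 and 12.7 (-0.78, SE 0.21, adjusted p = 0.02, not passing without ND 1, ND 3 or HP 2). Ctsh fell from 166, 186 and 216 FPKM to 164, 126 and 120.0 (-0.48), and Ctsf from 10.6, 10.9 and 9.97 to 8.203, 7.27 and 7.25 (-0.42). The HP libraries of all 3 were below every ND library. Ctss, which led in eWAT, had 12.2, 13.2 and 17.5 FPKM in ND and 12.9, 18.1 and 23.2 in HP, so that the groups overlapped (0.29, 95% interval -0.29 to 0.87).

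Lipa, higher in HP eWAT, was lower in HP liver. It had 133, 107 and 139 FPKM in ND, 91.0, 62.9 and 92.3 in HP, and 64.5, 87.9 and 79.6 in HR. Every ND liver library was above every library of both high-fat groups. The difference was -0.63 for HP (SE 0.18, adjusted p = 0.0225) and -0.70 for HR (adjusted p = 0.0619), and the HP call did not pass without ND 1, ND 3 or HP 2. Ppt1 rose from 10.4, 11.9 and 11.2 FPKM to 14.3, 13.7 and 18.8 (0.43). Scarb2 fell from 35.8, 27.5 and 41.2 FPKM to 22.6, 18.5 and 20.8 (-0.72, SE 0.17, adjusted p = 0.01). In the pump Atp6v1e1 rose from 49.7, 50.6 and 52.4 FPKM to 84.1, 94.9 and 92.7, with 60.9, 60.2 and 62.7 in HR (0.82, SE 0.10, adjusted p = 0.000496). Atp6v0b rose from 26.6, 29.2 and 25.0 FPKM to 39.1, 37.7 and 43.4 (0.56), and Atp6v1h from 26.0, 24.8 and 31.6 to 35.9, 37.4 and 36.5 (0.41). Atp6v0c rose from 71.5, 60.5 and 59.2 FPKM to 83.4, 89.6 and 85.3 (0.43), and Atp6v0d1 by 0.32. After a correction for transcript length and GC content Atp6v0b stood at -0.04. Atp6v1a (-0.05), Atp6v1b2 (-0.23) and Atp6v0a1 (-0.13), which led the pump genes in eWAT, did not pass in liver. Tfeb had 3.33, 4.18 and 2.85 FPKM in ND and 3.95, 4.13 and 4.03 in HP, which overlapped (0.19, 95% interval -0.12 to 0.49). Tfe3 had 6.36, 6.61 and 7.04 FPKM in ND and 8.72, 7.67 and 7.66 in HP (0.23), and neither passed. Cd63, Hexa, Ctsz, Atp6v1e1, Neu1 and Scarb2 kept their liver calls under every alternative and every library left out, as 6 of the 20.

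No macrophage marker passed in liver, 0 of 9 tested in HP against ND (limma, 0 at an unadjusted p under 0.05), at 77.0 to 103 FPKM summed in ND and 90.8 to 133 in HP. Itgam, Itgax, Trem2 and Gpnmb were below the filter on low values and untested. Gpnmb had 0.0498 to 0.0674 FPKM in ND and 0.372 to 0.688 in HP, and Trem2 0.230 to 0.483 and 0.592 to 2.19. Itgax (0.159 to 0.200 and 0.185 to 0.565) and Itgam (0.172 to 0.420 and 0.178 to 0.236) overlapped. Kupffer cell markers summed to 59.0 to 81.9 FPKM in ND and 65.7 to 78.2 in HP. Sums of other markers differed between the groups. The 4 adipocyte markers summed to 36.7 to 64.8 FPKM in ND and 107 to 152 in HP liver, with Adipoq and Plin1 at or near 0, and 4 neutrophil markers to 1.27 to 1.44 and 4.24 to 5.24. Endothelial markers summed to 18.1 to 20.9 FPKM in ND and 10.9 to 14.0 in HP, with 2 of 5 lower, and T cell markers, none of which passed the filter, to 1.94 to 2.30 and 1.05 to 1.14. Muscle markers reached 98.9 FPKM in HP 2 and 19.9 in HP 3. Their part in the lysosomal values was not tested. The 6 calls just named held without HP 2 and without HP 3. Each of these fits kept the other library with muscle markers, so they cannot show whether the calls depend on muscle RNA.

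The other liver comparisons gave few calls. In HR against ND 1 of 44 genes was higher, Hexa (0.66, SE 0.12, adjusted p = 0.0182), and 0 lower, where 2.28% of all genes were higher and 0.969% lower. Hexa no longer passed without ND 1, ND 3, HR 2 or HR 3. In HP against HR 4 of 44 were higher and 0 lower, where 7.2% of all genes were higher and 3.94% lower. They were Cd63 (1.95, SE 0.30, adjusted p = 0.00525), Ctsz (0.67, adjusted p = 0.0364), Atp6v1e1 (0.56, adjusted p = 0.0101) and Atp6v0b (0.48, adjusted p = 0.0236). Of these Cd63 held throughout, and the count was 1 without HR 2, 2 without HP 2, HP 3 or HR 3, and 7 without HR 1.

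The same further lists were counted in liver for HP against ND, where 17.6% of all genes were higher and 14.1% lower. Of 25 further hydrolases 8 rose (32%) and 2 fell (8%). Acp5, an acid phosphatase, rose from 43.4, 53.9 and 47.4 FPKM to 91.4, 112 and 99.1 (1.05, SE 0.12, adjusted p = 0.000381). Both cystatins rose, Cstb by 1.28 and Cst3 by 0.86. Other pump subunits rose for 4 of 7 and fell for 1, with Atp6v0d2 at 1.18 and Atp6v1f at 1.08. Atp6v0d2 stayed at or below 3.38 FPKM in all liver libraries. Lamtor4 (1.36) and Lamtor2 (0.86), of the complex that anchors mTORC1, were among 6 of 12 that rose in their list, and 6 of 17 autophagy genes (35.3%) rose and 2 fell, with Atg7 at 1.00 and Gabarap at 0.86. Of 16 membrane proteins 1 rose (6.25%), Clcn7 by 0.51, and 2 fell (12.5%), among them Sidt2 by 0.72, shares below those of all genes. Of 6 mannose 6-phosphate genes 2 rose, Nagpa by 0.73 and Gnptg by 0.57.

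**Figure D5:**
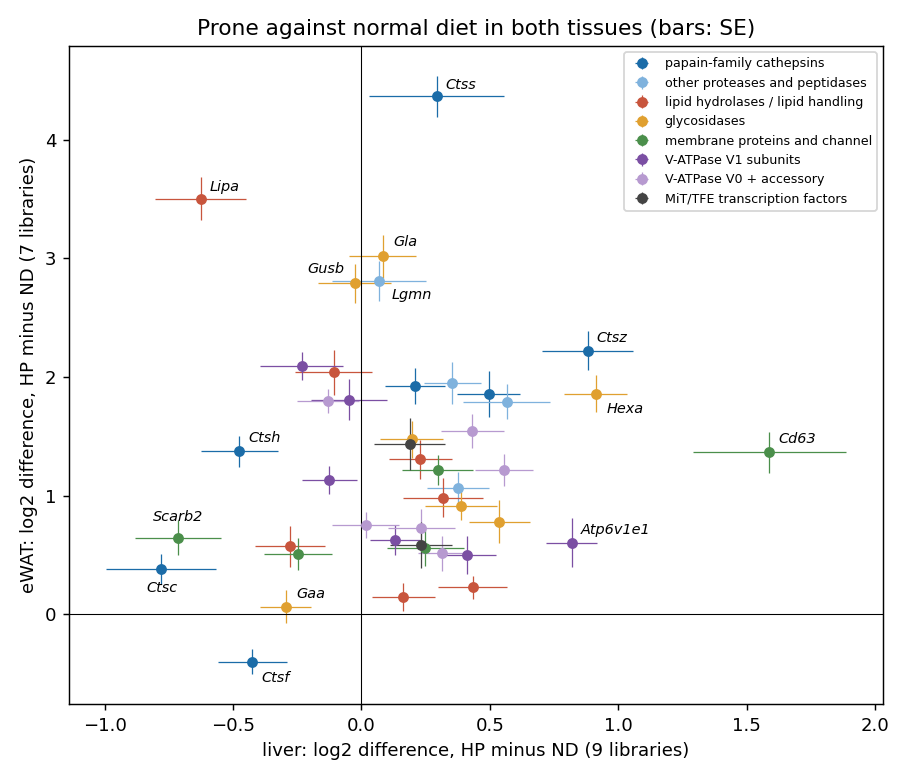
Log2 difference of HP from ND in liver (x axis, 9 libraries) and eWAT (y axis, 7 libraries) for the 44 lysosomal genes tested in both, coloured by class, with bars for the standard errors. The eWAT values reach 4.37 (Ctss) while liver values span -0.78 (Ctsc) to 1.59 (Cd63), and Lipa lies at 3.51 in eWAT and -0.63 in liver.

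The difference between the tissues was tested directly, as the eWAT change minus the liver change over 16 libraries. This difference is signed, so a value above 0 can come from a rise in eWAT, a fall in liver or both. The fit treated libraries of the 2 tissues as independent, with 1 spread per gene. It is unstated whether same-numbered eWAT and liver libraries share a mouse. Their deviations from group means correlated at -0.159 to 0.23. For HP against ND 33 of 46 genes passed with a value above 0 and 0 below, where 16.8% of all genes passed above 0 and 11.2% below. The 33 include Ctsc and Scarb2, which were lower in HP liver and whose estimates were larger in size there than in eWAT. The largest were Lipa (4.13, SE 0.27, adjusted p = 4.68e-07), Ctss (4.07), Ctsk (3.74) and Gla (2.93). Cd63 (-0.22, 95% interval -1.14 to 0.69), Atp6v1e1 (-0.22), Ppt1 (-0.21), Smpd1 (-0.02) and Ctsf (0.02) did not pass. For HR against ND 17 passed above 0, where 5.62% of all genes passed above 0 and 1.57% below. For HP against HR 14 passed above 0, where 5.74% of all genes passed above 0 and 4.43% below. Over all 18 libraries the 3 counts were 13, 0 and 0 (limma). The last was 3 without eWAT HR 1 and 8 without eWAT HP 3 or liver HR 2.

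On normal diet the 2 tissues differed in which lysosomal genes were abundant. Psap (mean 859 FPKM), Ctsd (789.6) and Ctsb (425) led in eWAT over ND 2 and ND 3, and Lamp2 (346), Ctsl (320.2) and Psap (246) in liver. Of 46 genes 35 were higher in eWAT and 4 lower, where 65.3% of all 13690 genes were higher and 13.6% lower. The share of 76.1% among the members is not far above that background. Cd63 had the largest difference (5.37, SE 0.31, adjusted p = 2.96e-09), then Npc2 (3.50) and Ctsk (3.41). Lipa (-1.86), Ctsh (-1.85), Lamp2 (-1.22) and Npc1 (-0.79) were lower in eWAT. The median of all genes was 0.85 here and 0.25 after median-ratio rescaling, when 25 genes were higher and 10 lower (42.3% and 26.1% of all), so some directions in this comparison depend on the scale. After that rescaling Gaa passed as lower in eWAT (limma, -0.23, adjusted p = 0.0441). With quantile normalization 29 were higher and 7 lower (33.5% and 30.6% of all). Gla (limma, -0.61, adjusted p = 0.0141) and Tfeb (limma, -0.42, adjusted p = 0.0388) then passed as lower in eWAT.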

How the data were processed

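RNA of eWAT and liver was sequenced from poly-A RNA libraries (TruSeq kit), per the labels' protocols. The submitters' processing notes name CASAVA 1.8.2, STAR 2.4.0 and Cufflinks 2.1.1. No build, annotation or strand setting is stated in them, so overlapping and antisense genes cannot be told apart. The authors deposited FPKM values for 23474 gene identifiers, of which 22671 were named through GENCODE M21. FPKM values are not counts and the absolute depth is unknown.

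Groups came from the sample titles and labels. Genes at 1 FPKM or more in at least 3 libraries of a fit (of either tissue, where both were fitted) entered the tests on the log2(FPKM + 1) scale, made with limma 3.58.1 (R 4.3.3) and a variance trend, the 3 groups of a tissue in 1 fit, two-sided, and Benjamini-Hochberg adjustment over all genes tested, at 0.05. The steps were tested on simulated data. The 46 genes and all other lists were chosen with earlier results of these data known. Values by library were given, by rule, for up to 3 genes of each class with the largest called difference in eWAT HP against ND and up to 2 in liver, the 3 factors, genes called against the majority, and up to 4 per tissue difference. Up to 2 genes of each other list were named per tissue. 1 gene that this rule names is not reported here. Other genes named were chosen after their values were seen. Alternatives changed the pseudocount, filter, normalization, variance trend, samples fitted and length and GC correction, added a replicate block, and left out each library. Promoter windows came from RefSeq on GRCm38.p6. For 32 of 39 genes the first 35 bases after the start were found within a transcript of the gene, on the same strand.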

Additional observations from a re-analysis of the deposited data

Results flagged for a closer look

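For 12 results the change between diet groups differed between eWAT and liver by the test of the difference itself, the eWAT change minus the liver change over 16 libraries (limma, log2 scale). For HP against ND the difference was 4.13 for Lipa, 4.07 for Ctss, 3.74 for Ctsk and 2.93 for Gla. For HR against ND it was 3.36 for Ctss, 2.69 for Lipa, 2.53 for Ctsk and 1.94 for Lgmn. For HP against HR it was 1.58 for Gla, 1.45 for Lipa, 1.21 for Ctsk and 1.11 for Atp6v1b2. Over all 18 libraries none of the differences for HR against ND or HP against HR passed.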

How the results depend on the processing

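Counts of lysosomal genes called moved by over 1.5 times as follows. In eWAT over 9 libraries, HP against ND went from 4 to 0 with quantile normalization and to 0 with the replicate block. Over 7 libraries, HR against ND went from 18 to 10 with no filter, 3 with the compared groups alone and 2 with the replicate block, and HP against HR from 22 to 10 with no filter, 13 with median-ratio rescaling and 0 with the replicate block. In liver, HP against ND went from 20 to 12 with libraries rescaled to the same sum and 13 with the replicate block, HR against ND from 1 to 2 with median-ratio rescaling, with the compared groups alone and with the length and GC correction, and HP against HR from 4 to 2 with the same sum. Over all 18 libraries the tissue differences went from 33 to 13, from 17 to 0 and from 14 to 0, and eWAT against liver from 39 to 20. Without ND 3 and HP 1 as well, the 5 eWAT libraries gave 35 higher and 0 lower in HP against ND.

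With each library left out in turn the counts ran, in eWAT over 9 libraries, from 0 to 15 for HP against ND and 0 to 0 for the other pairs. Over 7 libraries they ran from 30 to 38 for HP against ND, 4 to 20 for HR against ND and 0 to 29 for HP against HR. In liver they ran from 9 to 19, 0 to 2 and 1 to 7, for the tissue differences from 32 to 36, 12 to 19 and 3 to 18, and for eWAT against liver from 38 to 40. A lone library left in a group is assumed to vary like the other groups.

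Signs reversed for 9 values: Atp6v0b in liver HP against ND (-0.0402 with the length and GC correction), and in eWAT against liver Tfeb (-0.42) and Gla (-0.61) with quantile normalization, Atp6v1d (-0.11), Gaa (-0.23), Lamp1 (-0.34), Atp6v0b (-0.15) and Atp6v1h (-0.0435) with median-ratio rescaling, and Tpp1 (-0.17) over 18 libraries. Of these, Tfeb, Gla and Gaa passed the threshold in the reversed direction. The causes were not tested. Of the other alternative values for single genes 1658 kept direction and side of the threshold and 301 no longer passed. Libraries with the same replicate number did not deviate together (correlations -0.843 to 0.625 in eWAT and -0.348 to 0.428 in liver), so the replicate block does not pair mice.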
